A study of Mus musculus with 6 samples.

Results

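Regulatory T cells (Treg cells) restrain immune responses, and the 8 genes described here are those by which thymic Treg cells are commonly recognised. They were taken as a fixed list of names, *Foxp3*, *Ikzf2*, *Ikzf4*, *Il2ra*, *Il2rb*, *Ctla4*, *Tnfrsf18* and *Tnfrsf4*, and found by their Ensembl identifiers through the GENCODE vM21 symbols. All 8 were present among the 54547 gene identifiers of the count files. Small RNA was sequenced from Treg cells sorted from the thymus of mice aged 7 weeks, with 3 libraries from wild-type (WT) and 3 from mice labelled miR-181a1/b1 -/- (KO, miR-181a/b-1-/-), which lack miR-181a-1 and miR-181b-1. The labels give the strain background of both groups as C5BL6/N. Each sort was made from 3 pooled thymi, so a library is a pool of animals and not 1 mouse. The thymus is the source named in the methods, whereas the paper's results text calls the sequenced cells peripheral. The deletion is a germline one, so every other cell of these thymi lacked the 2 miRNA genes as well. The methods name an antibody clone against CD25, the product of *Il2ra*, for sorting but not the gate used for these samples, so *Il2ra* may have served to choose the cells. Counts on genes ranged from 168293 to 307840 per library, and 21.1% to 26.8% of them fell on protein-coding genes, the rest mostly on small nucleolar RNA and mitochondrial ribosomal RNA. Protein-coding genes took the smallest share in KO replicate 3, the library with the most counts.

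Foxp3 is the transcription factor that defines the lineage, and Helios and Eos, encoded by *Ikzf2* and *Ikzf4*, are Ikaros family zinc finger factors found with it in Treg cells. The alpha and beta chains of the interleukin-2 receptor, encoded by *Il2ra* and *Il2rb*, form with the common gamma chain the receptor through which interleukin-2 sustains Treg cells. CTLA-4 competes with CD28 for the ligands CD80 and CD86, and GITR and OX40, encoded by *Tnfrsf18* and *Tnfrsf4*, are costimulatory receptors of the TNF receptor family. A small RNA library is meant to hold miRNAs and other short transcripts. What it carries of an mRNA are fragments, and a count here is a fragment assigned to the gene and not an intact message.

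The deleted miRNAs share their seed, the bases 2 to 8 by which a miRNA pairs with its targets. The mature strands are shown because they are the products of the deleted genes, with the seed in capitals. Mature miR-181a and miR-181b also arise from another locus, which these mice keep. The sequences are from RefSeq on GRCm38.p6 (forward strand, chr1:137966468-137966490 and chr1:137966650-137966673).
miR-181a-5p: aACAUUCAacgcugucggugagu
miR-181b-5p: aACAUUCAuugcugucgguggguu
The complement of this seed, TGAATGT, was looked for on the transcript strand of the longest coding transcript of each of the 8 genes. It occurred in 2 of them, with 1 match in each, shown with flanking bases and the match in capitals.
*Ikzf2*, in the 3′ UTR: atatgcatgtgTGAATGTgtgt
*Il2rb*, in the coding sequence: tgaagaggctcTGAATGTcaca
The *Ikzf2* match lies at chr1:69531511-69531517 and the *Il2rb* match at chr15:78490901-78490907, both on the reverse strand of GRCm38. Of the longest coding transcripts of 21814 protein-coding genes, 25.6% held the same 7 letters. Among transcripts within 10% of the length of the *Ikzf2* transcript (9278 bases) the share was 64.6%, and among those within 10% of that of *Il2rb* (4194 bases) it was 34.7%. The transcripts of *Foxp3*, *Ikzf4*, *Il2ra*, *Ctla4*, *Tnfrsf18* and *Tnfrsf4* did not hold these letters. This says only that the 7 letters are absent from that 1 transcript of each gene, as shorter or mismatched pairing and other transcripts were not searched. Among transcripts of their lengths, the share with a match ran from 7.41% for *Tnfrsf4* to 39.4% for *Ikzf4*.

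Many fragments were assigned to 7 of the 8 genes, and almost none to *Ctla4*. Ambiguous records (20.4% to 24.0% of a library) and records not uniquely aligned (41.7% to 46.2%) were assigned to no gene. Summed over the 6 libraries, *Ikzf2* had 591 counts, *Il2rb* 247, *Il2ra* 246, *Tnfrsf18* 170, *Ikzf4* 154, *Tnfrsf4* 152 and *Foxp3* 149. *Ctla4* had 1. At least 1 count was found for 12566 of the 21967 protein-coding genes, and 100 counts or more for 503, which is 2.29%. The 7 genes were among these 503. *Ikzf2* ranked 40 among all protein-coding genes by counts, and the other 6 ranked between 125 and 253.

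Per kilobase of exon the order of the genes was another, as their exonic lengths ran from 1365 bases for *Tnfrsf4* and 1524 for *Tnfrsf18* to 11613 for *Ikzf2*. Lengths are the exonic bases of all annotated transcripts of a gene merged, so they exceed those of a single mRNA. *Tnfrsf18* (112 counts per kb over the 6 libraries) and *Tnfrsf4* (111) had the highest density. *Il2rb* followed with 57.6, *Ikzf2* with 50.9, *Il2ra* with 43.1, *Foxp3* with 32.6 and *Ikzf4* with 25.7. The median over the protein-coding genes with a count was 1.73 per kb, and between 97.9% and 99.5% of all protein-coding genes lay below each of these 7. The 0.429 per kb of *Ctla4* lay below that median. Neighbours in this order were compared library by library, on counts per 100000 gene counts and per kb. *Tnfrsf18* was above *Tnfrsf4* in 3 of 6 libraries and *Ikzf2* was above *Il2ra* in 4, so these neighbours were not separated. *Il2rb* was above *Ikzf2*, *Il2ra* above *Foxp3* and *Foxp3* above *Ikzf4* in 5 of 6 libraries each. *Tnfrsf4* was above *Il2rb*, and *Ikzf4* above *Ctla4*, in all 6. In *Tnfrsf4* and *Il2rb* the ranges over the 6 libraries did not overlap, at 5.71 to 11.8 against 3.56 to 4.99 counts per 100000 per kb.

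**Figure D1:**
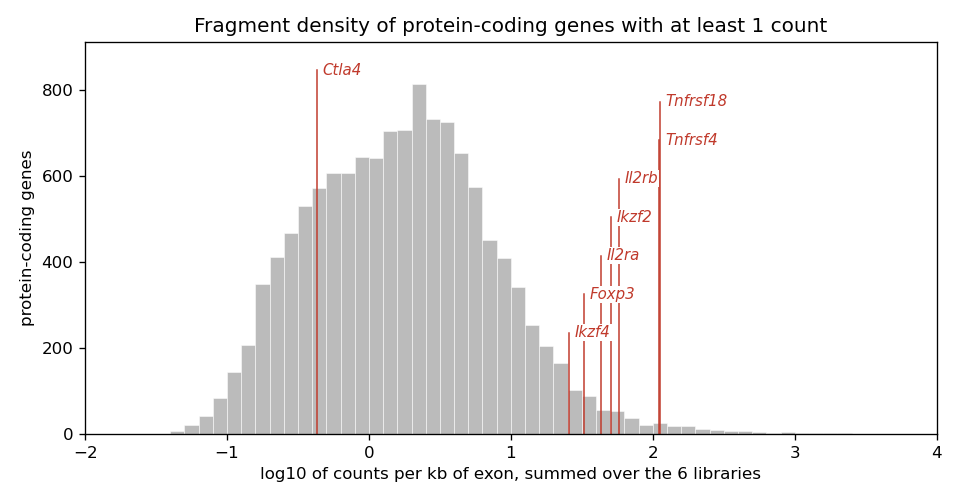
The histogram gives the number of protein-coding genes (vertical axis) by log10 of their counts per kb of exon over the 6 libraries (horizontal axis), for the 12566 genes with at least 1 count. Red lines mark the 8 Treg identity genes, of which 7 lie in the right tail, between 25.7 and 112 counts per kb, and *Ctla4* lies at 0.429.

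Overlapping genes bear on some of these densities, since whether the counting used the strand was not stated. Of the 4577 exonic bases of *Foxp3*, 1443 are shared with exons of other genes, among them *Flicr*, a noncoding RNA gene of the same strand, and *Ccdc22*, a protein-coding gene of the opposite strand. Fragments from shared bases may have been set aside as ambiguous. If no counted fragment came from shared bases, which was not measured, the counts of *Foxp3* would amount to 47.5 per kb of unshared exon. That would be above *Il2ra* (43.1), the reverse of the order given before. *Tnfrsf18* shares 414 of its 1524 exonic bases with the antisense gene Gm16008, and under the same assumption would have 153 counts per kb. With counting by strand the bases shared with opposite-strand genes would count as usual, and the density of *Tnfrsf18* would stay at 112. Of the exonic bases of *Foxp3*, 3724 would then be unshared, as *Flicr* lies on its strand. *Ikzf2* and *Ikzf4* share 144 and 37 bases, and *Il2ra*, *Il2rb*, *Ctla4* and *Tnfrsf4* none. The genes that share these exons had few counts, 10 for *Flicr*, 6 for Ppp1r3f and 1 or 0 for each of the others.

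The 8 genes held 294, 292 and 301 counts in the WT replicates 1, 2 and 3, and 238, 235 and 350 in the KO replicates. Per 100000 gene counts this was 132.4, 130.0 and 123.6 in WT and 141.4, 120.5 and 113.7 in KO, or 128.7 ± 4.55 (SD, n = 3) and 125.2 ± 14.4 (SD, n = 3). On this scale the highest and the lowest library were both KO. Per 100000 protein-coding counts the highest was WT replicate 2 (547.7) and the lowest KO replicate 2 (492.3), with 537.1 ± 13.9 in WT and 519.6 ± 24.2 in KO (SD, n = 3). The 95% Wilson interval of a library reached from 118.1 to 148.4 in WT replicate 1 and from 102.4 to 126.2 in KO replicate 3. Such intervals leave out differences between pools. Amplified reads without molecular identifiers are not independent molecules, so the intervals may be too narrow for counting error as well. *Ikzf2* alone made up 26.7% to 41.6% of the members' counts in a library.

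None of the 7 genes that could be tested, and no other gene, passed an adjusted p of 0.05 between KO and WT. The test was edgeR's quasi-likelihood test with TMM normalization over all 6265 genes that had at least 10 counts in the 6 libraries together, with Benjamini-Hochberg adjustment over all of them. It called 0 genes (0%), and DESeq2 on the same genes also called 0. Other settings called a few genes, none of them among the 8, with 3 without a TMM factor, 6 with protein-coding genes alone, 8 without a filter, 2 with a replicate block, 9 without KO replicate 1 and 5 without KO replicate 3. In the test with all libraries an unadjusted p under 0.05 was reached by 136 genes lower in KO (2.17%) and 152 higher (2.43%). Of the 8 genes, 7 passed the filter, and none of these reached an unadjusted p under 0.05. Their standard errors were 0.26 to 0.32 on the log2 scale, and their 95% confidence intervals reached 0.515 to 0.645 to either side. In simulated counts, 29.7% of 37 genes with a mean of 20 or more per library were called after a 2-fold change. After a 4-fold change 95.2% of 42 such genes were called, with 5 false calls among all genes. The simulation gave every gene the same dispersion (0.048), so these rates may not hold for the 7 genes. In bulk libraries, fewer fragments per cell and fewer cells of a type cannot be told apart. Levels below are TMM-normalized CPM, counts scaled to a common total of the counts on tested genes, and differences are log2 fold changes of KO against WT.

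The transcription factors gave no common direction. *Foxp3* (chrX:7573644-7595245 of GRCm38, forward strand) was counted 25, 26 and 23 times in WT and 19, 17 and 39 times in KO. In CPM these were 111.3, 121.1 and 96.8 in WT, and 103.4, 87.7 and 149.2 in KO. KO replicate 3 was the highest library and KO replicate 2 the lowest, and the groups overlapped. The means were 109.7 ± 12.2 and 113.4 ± 31.9 CPM (SD, n = 3), a log2 fold change of 0.07 (standard error 0.32, 95% confidence interval -0.56 to 0.71, adjusted p = 0.986). Its sign turned without KO replicate 3 (-0.20) or without WT replicate 3 (-0.02).

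*Ikzf2*, which encodes Helios, spans chr1:69531214-69687245 on the reverse strand, and only 7.44% of this span is exonic. It was the most counted of the genes in every library, with 103, 78 and 102 counts in WT and 99, 84 and 125 in KO. Its levels were 458.4, 363.3 and 429.3 CPM in WT and 538.7, 433.2 and 478.0 CPM in KO. KO replicates 1 and 3 lay above all WT libraries and KO replicate 2 within their range, but per 100000 gene counts KO replicate 3 (40.6) also lay within that of WT (34.7 to 46.4). The means were 417.0 ± 48.7 and 483.3 ± 53.0 CPM (SD, n = 3), a log2 fold change of 0.21 (standard error 0.26, interval -0.30 to 0.73, adjusted p = 0.986).

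*Ikzf4*, which encodes Eos, lies on the reverse strand at chr10:128630843-128645991. It had 42, 29 and 23 counts in WT and 18, 19 and 23 in KO. The WT libraries spread widely, at 186.9, 135.1 and 96.8 CPM, while the KO libraries stood close together at 97.95, 97.98 and 87.96 CPM. The 3 KO libraries were thus near the lowest WT library, and 2 of them lay just above it. The means were 139.6 ± 45.2 and 94.6 ± 5.78 CPM (SD, n = 3). The log2 fold change was -0.56 (standard error 0.32, interval -1.21 to 0.08, unadjusted p = 0.0868, adjusted p = 0.986), the lowest of the 7 genes with all libraries. It rested on single libraries, at -0.28 without WT replicate 1, where *Il2ra* and *Tnfrsf18* were lower, and at -0.78 without WT replicate 3 (interval -1.47 to -0.09, edgeR unadjusted p = 0.0285, adjusted p = 0.990).

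Both interleukin-2 receptor chains among the 8 genes had negative log2 fold changes that did not pass the test. The gamma chain gene *Il2rg*, outside the 8, had a positive one (0.52, standard error 0.32), which did not pass either. *Il2ra*, the alpha chain or CD25 (chr2:11642807-11693193, forward strand), had 35, 53 and 53 counts in WT and 29, 31 and 45 in KO. Its levels were 155.8, 246.9 and 223.1 CPM in WT and 157.8, 159.9 and 172.1 CPM in KO. WT replicate 1 lay below all KO libraries and the other WT libraries above them, whereas per 100000 gene counts KO replicate 3 (14.6) was below WT replicate 1 (15.8). Means of 208.6 ± 47.3 and 163.3 ± 7.73 CPM (SD, n = 3) gave a log2 fold change of -0.35 (standard error 0.29, interval -0.93 to 0.23, adjusted p = 0.986).

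*Il2rb*, the beta chain or CD122 (chr15:78479256-78495271, reverse strand), had 47, 48 and 41 counts in WT and 27, 37 and 47 in KO. In CPM this was 209.2, 223.6 and 172.6 in WT, and 146.9, 190.8 and 179.7 in KO. KO replicate 1 was the lowest library, and the other KO libraries lay within the range of WT. Per 100000 gene counts both KO replicate 3 (15.3) and KO replicate 1 (16.0) were below the lowest WT library (16.8). Means of 201.8 ± 26.3 and 172.5 ± 22.8 CPM (SD, n = 3) gave a log2 fold change of -0.22 (standard error 0.29, interval -0.79 to 0.35, adjusted p = 0.986).

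The TNF receptor genes *Tnfrsf4* and *Tnfrsf18* are close neighbours on the forward strand of chromosome 4, at chr4:156013843-156016612 and chr4:156026164-156028895, and had opposite signs. *Tnfrsf4*, which encodes OX40, had 23, 24 and 19 counts in WT and 27, 28 and 31 in KO. Its levels were 102.4, 111.8 and 80.0 CPM in WT and 146.9, 144.4 and 118.6 CPM in KO, so that all 3 KO libraries lay above all WT libraries. Among all genes tested, 5.03% had every KO library above every WT library and 5.04% every KO library below. With means of 98.0 ± 16.4 and 136.6 ± 15.7 CPM (SD, n = 3), the log2 fold change of 0.47 was the highest of the 7 genes (standard error 0.31, interval -0.16 to 1.10, adjusted p = 0.986). A two-sided exact permutation test on CPM gave p = 0.1, below which groups of 3 cannot go. Scaled by library totals alone the separation was lost, since KO replicate 3 had 10.1 and WT replicate 2 had 10.7 counts per 100000 gene counts (exact permutation test, two-sided, p = 0.3).

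*Tnfrsf18*, which encodes GITR, had 19, 34 and 39 counts in WT and 19, 19 and 40 in KO. The levels of 84.6, 158.4 and 164.1 CPM in WT and 103.4, 98.0 and 153.0 CPM in KO overlapped, with all KO libraries within the range of WT. Means of 135.7 ± 44.4 and 118.1 ± 30.3 CPM (SD, n = 3) gave a log2 fold change of -0.18 (standard error 0.32, interval -0.82 to 0.46, adjusted p = 0.986). It moved to -0.02 without WT replicate 3, to -0.07 without WT replicate 2, to -0.06 without KO replicate 2 and to -0.09 without KO replicate 1, and to -0.42 without WT replicate 1 and -0.44 without KO replicate 3.

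**Figure D2:**
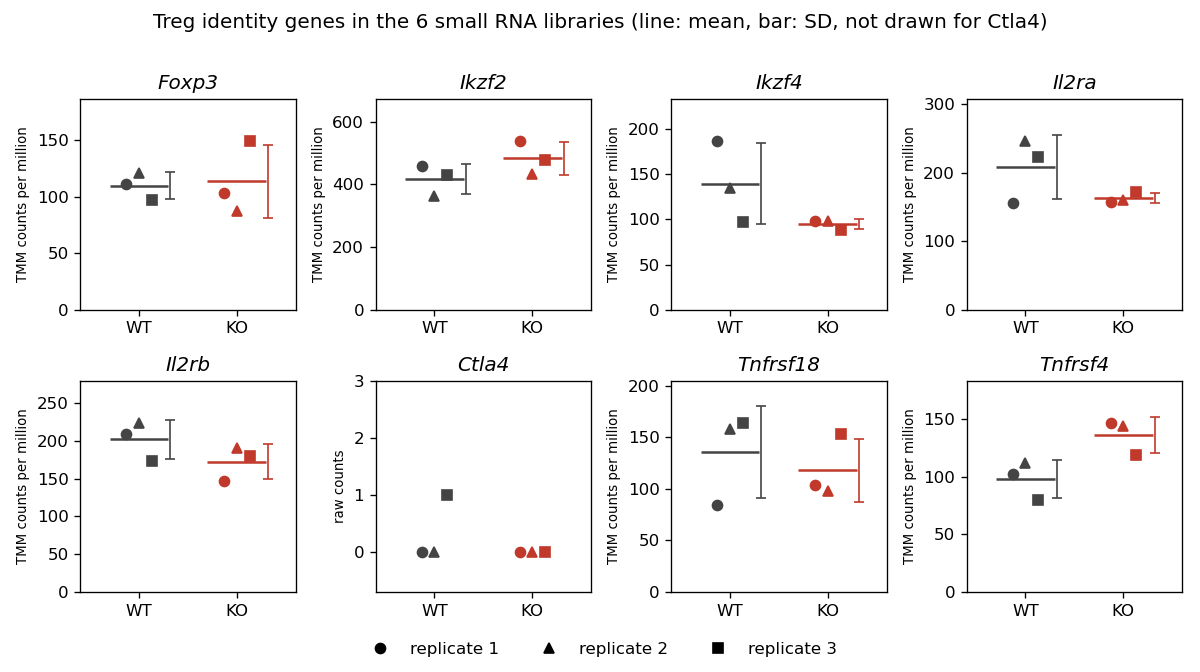
Each panel shows 1 gene in the 3 WT and 3 KO (miR-181a/b-1-/-) libraries, in TMM-normalized CPM or, for *Ctla4*, raw counts. Symbols mark the replicate number, lines the group mean and bars the SD (n = 3). The groups are separate in *Tnfrsf4* alone, and *Ctla4* shows its 1 count, in WT replicate 3.

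**Figure D3:**
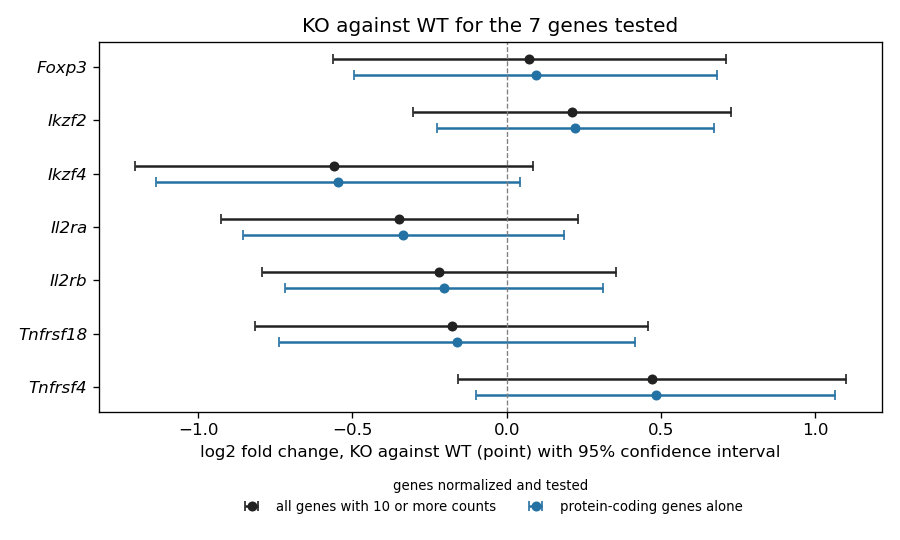
Points are log2 fold changes of KO against WT with 95% confidence intervals from edgeR, for all genes with 10 or more counts (black) and for protein-coding genes normalized and tested alone (blue). All intervals include 0, from *Ikzf4* at -0.56 to *Tnfrsf4* at 0.47.

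*Ctla4*, the receptor whose protein is a central subject of the study, lies at chr1:60887000-60915832 on the forward strand. Its 1 count was in WT replicate 3, and the other 5 libraries had 0. A count of 0 allows up to 3 counts, which is 0.9745 to 1.78 per 100000 gene counts in these 5 libraries, so a difference between the genotypes was not detectable at this depth. *Ctla4* has 2330 exonic bases, more than *Tnfrsf18* (1524) or *Tnfrsf4* (1365), and shares none of them with another exon in GENCODE vM21. The release the authors counted with is not given in the sources used here, so an overlapping gene in it could not be looked for. Its nearest protein-coding neighbours, chosen after their values were seen, had few counts too. *Cd28*, a costimulatory receptor of T cells, had 2 counts over the 6 libraries on 6122 exonic bases, and *Icos*, a related receptor of activated T cells, had 3 counts on 3430. Farther out, *Raph1* had 9 and *Pard3b* 0, while *Abi2* had 11 (1.29 per kb) and *Nrp2* 31 (2.62 per kb, above the median of genes with a count). Why so few fragments were assigned to *Ctla4* was not tested.

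Fragments of T cell mRNAs were found throughout, and most markers of other cells of the thymus had few counts. All 14 pan-T genes were counted, from 10.7 per kb for *Cd6* to 524.6 for *Trbc2*, the T cell receptor beta constant gene with 363 counts, which is nearly identical to *Trbc1*, so that the division of fragments between them is uncertain. Their summed level was 181.7 to 206.3 per 100000 gene counts in WT and 153.7 to 193.7 in KO, and 9 of their 14 log2 fold changes were negative (median -0.16). The counts of the 8 Treg identity genes were 0.669 ± 0.0408 (SD, n = 3) of those of the pan-T genes in WT and 0.700 ± 0.0609 (SD, n = 3) in KO. Markers of double-positive thymocytes summed to 0.821 to 2.67 per 100000 in WT and 2.92 to 4.10 in KO, with *Cd8b1* the most counted (10 counts) and *Ptcra* and *Rag2* at 0 throughout. On this scale all 3 KO libraries were above all WT libraries, in 1 of 6 marker sums examined and on 33 counts. With TMM factors the groups overlapped, KO replicate 1 being at 27.2 CPM and WT replicate 2 at 27.95 CPM. B cell markers summed to 3.28 to 5.86 in WT and 2.92 to 5.35 in KO, mostly from *Ighm* (49 counts), while *Cd79a* and *Ms4a1* were at 0. Per kb *Ighm* had 25.98 counts, near the 25.69 of *Ikzf4*. Of 10 myeloid and dendritic cell genes 8 were at 0 and *Cd74* had 11 counts, at a summed 0 to 1.35 in WT and 0.513 to 1.78 in KO. *Cd8b1* had 6.74 and *Cd74* 6.55 counts per kb, above the median of 1.73 for protein-coding genes with a count. Of the thymic epithelial genes 4 of 6 were at 0, with *Psmb11* at 1 count, and all 7 erythroid genes were at 0. Since genes of T cells such as *Cd28* and *Icos* also had few counts, low marker counts do not give the number of such cells, and their part in the results was not tested.

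Genes that act with the 8 were counted from 4 lists, in which edgeR called 0 genes. In interleukin-2 receptor signalling 13 of 16 genes were tested, 5 with a negative and 8 with a positive log2 fold change, at a median of 0.23 against 0.04 over all genes tested. The gamma chain gene *Il2rg*, with 17, 21 and 27 counts in WT and 28, 28 and 31 in KO, was at 0.52 (standard error 0.32), *Mcl1*, a survival factor, at -0.03 (0.27) and the kinase gene *Jak1* at -0.08 (0.29). The ligand gene *Il2* had 0 counts. Of the Ikaros family and Foxp3-associated transcription factors 22 of 25 were tested, 13 negative and 9 positive, with a median of -0.25. The most counted, *Satb1* (-0.002), *Gata3* (0.07) and *Foxp1* (0.11), differed by less than their standard errors of 0.28 to 0.30.

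Of other Treg receptors and effectors only 10 of 20 could be tested, with a median of 0.07. *Gpr83*, an orphan receptor of Treg cells, had 193 counts and was at -0.43 (standard error 0.33), *Izumo1r*, the folate receptor 4 gene, at -0.36 (0.34) and *Nrp1*, which encodes neuropilin 1, at 0.00 (0.39). The cytokine gene *Il10* and the inhibitory receptor gene *Lag3* had 0 counts. In the TNF receptor family and its adaptors 13 of 17 genes were tested, 9 negative and 4 positive, with a median of -0.28. *Nfkbia*, an inhibitor of NF-kappaB, had 213 counts per kb and was at -0.28 (0.27), *Nfkb1* at -0.40 (0.33) and *Tnfrsf9*, which encodes 4-1BB, at 0.33 (0.33). The ligands of OX40 and GITR, *Tnfsf4* and *Tnfsf18*, and the adaptor gene *Traf5* had 0 counts. For the 7 Treg identity genes themselves 4 log2 fold changes were negative, where 48.3% of all genes tested were, and their median was -0.18.

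**Figure D4:**
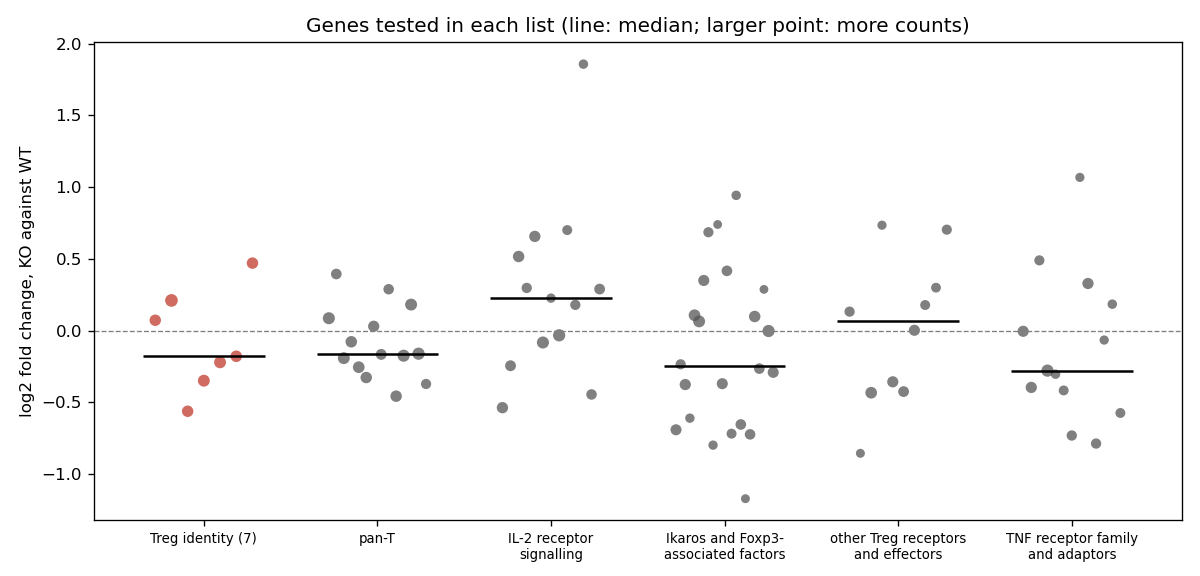
Each point is a tested gene, placed by list (horizontal axis) and by its log2 fold change of KO against WT (vertical axis), with larger points for more counts and a line at the median of the list. The medians run from -0.28 in the TNF receptor family to 0.23 in interleukin-2 receptor signalling, and the 7 Treg identity genes, in red, lie between -0.56 and 0.47.

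The genes most like each of the 7 over the 6 libraries were sought among 1390 others with at least 10 counts in 3 libraries. Likeness was the mean absolute difference in centred log2 CPM. The closest to *Foxp3* were *Rny1* (0.03), *Smg1* (0.07) and *Cacna1b* (0.08), to *Ikzf2* *Etnk1* (0.05), *Ppp2ca* (0.07) and *Gimap9* (0.07), and to *Ikzf4* *Pcbp2* (0.08), *Snord15a* (0.11) and *Snord71* (0.13). For *Il2ra* they were Gm6136 (0.08), *Tmem123* (0.08) and *S100a10* (0.09), and for *Il2rb* *Supt5* (0.04), *Capg* (0.05) and *Slc25a5* (0.05). For *Tnfrsf18* they were *Taf1d* (0.05), *Prdx2* (0.09) and *Mtrex* (0.10), and for *Tnfrsf4* *Sfpq* (0.06), *Tespa1* (0.06) and *Esyt2* (0.07). None of the 7 genes was among the closest of another. With 6 libraries and so many candidates, close matches are easily found and describe these libraries only.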

How the data were processed

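Small RNA was sequenced in sorted thymic Treg cells. The titles of the 6 libraries gave their group and replicate number. The authors trimmed adapters with Flexbar, removed ribosomal RNA with Bowtie 2, aligned with STAR and counted with HTSeq. They deposited raw counts per gene. The processing notes name GRCm38.p6. The annotation release and strand setting are not given in the sources used here. Of 54547 identifiers, 53706 matched GENCODE vM21 without their version. Records given to no gene, 75.7% to 80.3% of a library, were left out. The authors' miRNA comparison table (fold changes, p-values) was not used.

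KO was tested against WT with edgeR 4.0.16 (DESeq2 1.42.0 as alternative) in R 4.3.3, and exact tests and intervals used SciPy 1.17.1 in Python 3.11.15. Genes with at least 10 counts over the 6 libraries were kept, and standard errors were derived from the F statistic. The log2 CPM for likeness used a prior count of 2. The fit was checked on simulated counts. Replicates of a group differed by 2.62 to 7.26 times their degrees of freedom in a chi-square test over 1391 genes. The methods call the replicates biological.

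The 8 genes and the lists were chosen with earlier results of these data known. Genes named are the 8, the 3 most counted of each pathway list, the most counted of each marker list and the 3 most like each gene. *Cd28*, *Icos*, *Cd6*, *Trbc1*, *Raph1*, *Pard3b*, *Abi2*, *Nrp2*, *Flicr*, *Socs2*, other genes that overlap the 8 and list genes at 0 were named after their values were seen. Some marker genes are not reported here by name.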

Additional observations from a re-analysis of the deposited data

How the results depend on the processing

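None of the 7 genes tested reached an adjusted p under 0.05 in any of the 13 alternatives, where adjusted p ran from 0.734 to 1. *Ikzf2* and *Tnfrsf4* kept a positive, and *Ikzf4*, *Il2ra*, *Il2rb* and *Tnfrsf18* a negative log2 fold change in all 13. Single libraries moved the sizes, from 0.11 to 0.29 for *Ikzf2* (0.11 without WT replicate 2, 0.13 without KO replicate 1), -0.78 to -0.28 for *Ikzf4* (-0.28 without WT replicate 1), -0.51 to -0.22 for *Il2ra* (-0.22 without WT replicate 2), -0.33 to -0.12 for *Il2rb* (-0.12 without KO replicate 1), -0.44 to -0.02 for *Tnfrsf18* and 0.33 to 0.57 for *Tnfrsf4*. That of *Foxp3* ran from -0.204 to 0.232 when single libraries were omitted, and was -0.019 without WT replicate 3 and -0.204 without KO replicate 3. Over all genes, the number past the threshold was 0 in the fit reported and 3 without a TMM factor, 6 with protein-coding genes alone, 8 without a filter, and 0 to 9 when single libraries were omitted. It was 9 without KO replicate 1 and 5 without KO replicate 3. The cause was not tested. With the replicate number as a block it was 2. Deviations from the group means of same-numbered libraries correlated at 0.232, 0.081 and 0.183 over 1391 genes. Each library correlated best with its own number in the other group. The methods name no pairing, and the fit reported used no block. The block changed no call among the 7 genes, but lowered each standard error, to between 0.184 for *Ikzf2* and 0.279 for *Foxp3*. With it the lowest unadjusted p values in edgeR were 0.0659 for *Ikzf4* and 0.0768 for *Tnfrsf4*. The log2 ratio of the members' summed share, KO against WT, was -0.045, and -0.173 without *Ikzf2*, and -0.136 to 0.021 when single libraries were omitted. Counts of 17 to 125 per gene and library limit what could be resolved.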

Other observations

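*Socs2*, a suppressor of cytokine signalling from the interleukin-2 list, had 2, 2 and 1 counts in WT and 8, 3 and 7 in KO. Its log2 fold change was 1.86 (standard error 0.72, edgeR unadjusted p = 0.0121, adjusted p = 0.986), with all 3 KO libraries above all WT libraries in CPM, as in 5.03% of the genes tested. *Flicr*, a noncoding RNA gene that shares 853 exonic bases with *Foxp3* on the same strand, had 1, 3 and 5 counts in WT and 0, 0 and 1 in KO. Its log2 fold change was -2.70 (standard error 1.2, edgeR unadjusted p = 0.0282, adjusted p = 0.986). In CPM all 3 KO libraries lay below all WT libraries, as in 5.04% of the genes tested. KO replicate 3 and WT replicate 1 both had 1 count, so scaling alone set them apart (3.82 and 4.45 CPM). Both rest on few counts and were picked for their values. Within introns of *Ikzf2*, the sense-intronic genes Gm28112 and Gm29112 had 15 and 7 counts over the 6 libraries, with 6 and 4 in WT and 9 and 3 in KO. Within an intron of *Il2ra*, the unclassified gene Gm37881 had 2, 1 and 3 counts in WT and 0 in each KO library, too few to be tested.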
